A study of Mus musculus with 10 samples.

Results

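The sebaceous gland lipid genes described here are 10 genes of the oil gland of the hair follicle, namely Awat1, Awat2, Dgat2l6, Far2, Scd3, Mgst1, Elovl3, Mc5r, Soat1 and Fads2. They were taken by symbol from the 49671 gene IDs of each count file, and all 10 had enough reads to be tested. Whole skin was sequenced as poly(A) RNA from 5 NPYtet mice, homozygous for the Npytm2Rpa allele of Npy (NPY tet/tet), and from 5 WT mice, their wildtype siblings (NPY +/+). All mice were of the B6;129S4-Npytm2Rpa/J strain and 22 weeks old, with 1 library per mouse. By the labels, NPYtet replicates 2 and 5 and WT replicates 2, 4 and 5 are male, and NPYtet replicates 1, 3 and 4 and WT replicates 1 and 3 are female. The labels name no body site, hair cycle stage, litter or drug treatment.

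Sebocytes fill with lipid and burst to release sebum, which in mice is rich in wax esters, sterol esters and glycerides. Wax esters are made by joining a fatty alcohol to a fatty acid, so their synthesis needs a reductase that makes the alcohol, acyltransferases that join both parts, and elongases and desaturases that shape the chains. Androgens and melanocortins are known to stimulate the gland.

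Total counts ran from 23209405 reads in NPYtet replicate 5 to 53357695 in WT replicate 4. Levels are given as CPM, the usual depth-scaled read count, with library sizes adjusted by the trimmed mean of M values (TMM). Some libraries stood apart. NPYtet replicate 5 had 9.27% mitochondrial reads, against 1.86% to 3.03% in the other 9, and its scaling factor of 0.652 and that of WT replicate 2 (0.696) were the lowest. Reads of rRNA loci made up 4.70% and 1.82% in these libraries, in that order, against 0.24% to 0.44% in the rest. Genes with a read numbered 19953 and 21144, against 24710 to 26323 in the rest. Both libraries are labelled male, so sex is partly confounded with these traits. NPYtet replicate 1, labelled female, had 2 reads of Xist and 1513 of the Y-linked gene Ddx3y, whereas the other 4 libraries labelled female had 14149 to 20177 reads of Xist and 0 of Ddx3y. Libraries labelled male had 0 to 13 reads of Xist and 361 to 4078 of Ddx3y, ranges that hold NPYtet replicate 1. This library keeps its label below, and male and female there mean the labels. Npy, the targeted gene, was at 96.2 to 485 CPM in NPYtet skin and at 0.094 to 2.86 CPM in WT skin. The labelled tissue held abundant epidermal RNA, with Krt14 at a mean of 7308 ± 7656 CPM in NPYtet and 10824 ± 13010 CPM in WT (SD, n = 5 each). Of the sebocyte markers apart from the 10 genes, Krt79 was at 899 to 1397 CPM in NPYtet and 1126 to 3103 CPM in WT, Cidea at 37.9 to 104 and 28.1 to 148 CPM, and Pparg at 18.9 to 46.7 and 10.9 to 33.5 CPM in the same order of groups. These markers were detected in every library. In bulk skin, fewer sebocytes and less RNA per sebocyte cannot be told apart.

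No member passed the threshold for genotype (edgeR quasi-likelihood test with sex as a term, Benjamini-Hochberg adjusted p under 0.05), where 1 of 18060 genes, or 0.00554%, was called. At an unadjusted p under 0.05, Dgat2l6 was higher and Fads2 lower in NPYtet skin. That is 2 of 10 members, beside 3.59% of all genes tested (1.46% higher and 2.14% lower). The log2 fold change, NPYtet minus WT, was above 0 for 8 of 10 members, beside 48.8% of all genes, and the median was 0.38, beside -0.01 over all genes. Once a score of growing hair follicle markers was added to the fit, 5 of 10 were above 0 with a median of 0.004. In limma voom 6 of 10 were, with a median of 0.099. These were the lowest medians among the alternative fits, and the others ran from 0.172 to 0.672. The highest, with 8 of 10 above 0, came with the white adipocyte score added. All 15 tested hair markers had negative genotype differences (median log2 fold change -4.258), so their score is partly confounded with genotype. NPYtet and WT libraries overlapped for every member, and 0.0886% of all genes had every NPYtet library above every WT library while 0.216% had every one below.

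**Figure D1:**
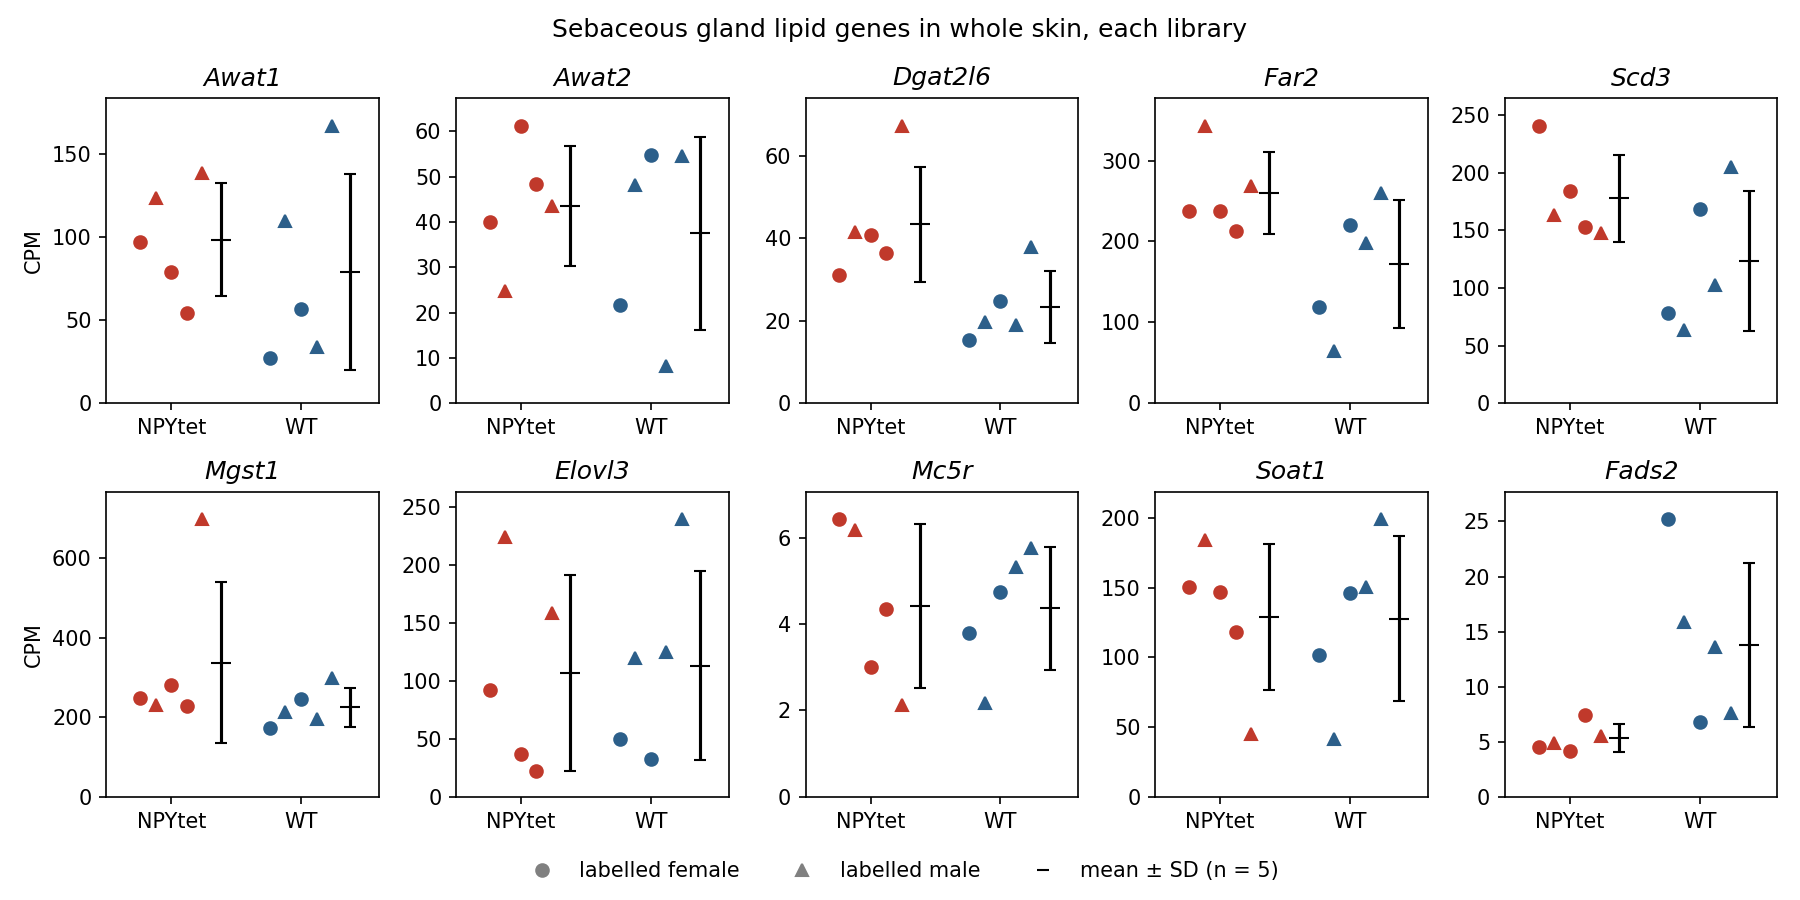
Level in CPM (vertical axis, linear from 0) of each of the 10 genes in the 5 NPYtet (red) and 5 WT (blue) libraries, with circles for libraries labelled female, triangles for those labelled male, and black bars for the mean ± SD. Dgat2l6 lies mostly higher and Fads2 mostly lower in NPYtet, Elovl3 separates by sex label, and 1 NPYtet library stands far above the rest in Mgst1 at 698 CPM.

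Compared per kilobase of exon, Mgst1 was the most abundant member, at 168 ± 101 CPM per kb in NPYtet and 112 ± 24.4 CPM per kb in WT (SD, n = 5 each, as in the rest of this paragraph). Awat1 followed at 70.8 ± 24.4 in NPYtet and 56.8 ± 42.4 in WT, Elovl3 at 54.1 ± 42.9 and 57.3 ± 41.2, and Scd3 at 50.1 ± 10.7 and 34.8 ± 17.1 CPM per kb. Far2 was at 35.5 ± 6.92 in NPYtet and 23.5 ± 10.8 in WT, Awat2 at 20.5 ± 6.24 and 17.6 ± 10.01, and Soat1 at 13.2 ± 5.33 and 13.0 ± 6.04 CPM per kb. The lowest were Dgat2l6, at 9.16 ± 2.95 in NPYtet and 4.92 ± 1.86 in WT, Fads2, at 1.62 ± 0.39 and 4.19 ± 2.26, and Mc5r, at 1.13 ± 0.49 and 1.12 ± 0.37 CPM per kb. In NPYtet the mean ± SD of neighbours in this order overlapped except between Far2 and Awat2 and between Dgat2l6 and Fads2. In WT they overlapped except between Soat1 and Dgat2l6 and between Fads2 and Mc5r.

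The acyltransferases Awat1, Awat2 and Dgat2l6 are neighbours on the X chromosome (mm10). Awat2 lies at chrX:100402221-100442717 on the minus strand (ENSMUSG00000031220), Dgat2l6 at chrX:100524838-100546144 on the plus strand (ENSMUSG00000067597) and Awat1 at chrX:100572251-100578205 on the plus strand (ENSMUSG00000015665). Awat1 and Awat2 are acyl-CoA wax alcohol acyltransferases, which join a fatty alcohol to a fatty acid, and Dgat2l6 belongs to the same family as the triglyceride synthase Dgat2. Fads2, a desaturase of polyunsaturated fatty acids, lies at chr19:10062765-10101746 on the minus strand (ENSMUSG00000024665). The windows from 250 bases before to 50 after the RefSeq start of these genes are shown because they belong to the neighbouring acyltransferases and to the member with the largest negative genotype difference (RefSeq, GRCm38.p6, 5′ to 3′). Capitals mark matches, on either strand, to any of 8 motifs: the nuclear receptor half-site AGGTCA, the direct repeat of that half-site bound by PPAR and RXR, the steroid receptor half-site AGAACA, the sterol element core TCACNCCAC, the TATA box TATAAA, the CCAAT box CCAAT, the GC box GGGCGG and the E-box CACGTG.
Dgat2l6, chrX:100524588-100524887, plus strand: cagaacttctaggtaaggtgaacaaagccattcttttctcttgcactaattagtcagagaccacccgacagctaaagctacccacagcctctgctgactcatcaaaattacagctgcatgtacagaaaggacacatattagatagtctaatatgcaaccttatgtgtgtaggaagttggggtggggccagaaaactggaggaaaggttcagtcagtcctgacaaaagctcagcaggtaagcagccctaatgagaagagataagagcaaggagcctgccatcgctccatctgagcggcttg
Awat1, chrX:100571997-100572296, plus strand: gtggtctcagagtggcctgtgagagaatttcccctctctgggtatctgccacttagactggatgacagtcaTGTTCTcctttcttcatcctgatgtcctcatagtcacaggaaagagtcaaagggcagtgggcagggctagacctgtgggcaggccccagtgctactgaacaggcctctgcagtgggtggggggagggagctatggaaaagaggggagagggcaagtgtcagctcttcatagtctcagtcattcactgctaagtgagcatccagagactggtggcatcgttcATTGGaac
Awat2, upstream start, chrX:100442668-100442967, minus strand: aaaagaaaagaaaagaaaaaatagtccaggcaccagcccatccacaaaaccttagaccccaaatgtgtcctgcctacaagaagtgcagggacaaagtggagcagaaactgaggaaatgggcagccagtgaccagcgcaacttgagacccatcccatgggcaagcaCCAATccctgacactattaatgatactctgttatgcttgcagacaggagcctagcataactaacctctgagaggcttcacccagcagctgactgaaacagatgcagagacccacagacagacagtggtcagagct
Awat2, downstream start, chrX:100412538-100412837, minus strand: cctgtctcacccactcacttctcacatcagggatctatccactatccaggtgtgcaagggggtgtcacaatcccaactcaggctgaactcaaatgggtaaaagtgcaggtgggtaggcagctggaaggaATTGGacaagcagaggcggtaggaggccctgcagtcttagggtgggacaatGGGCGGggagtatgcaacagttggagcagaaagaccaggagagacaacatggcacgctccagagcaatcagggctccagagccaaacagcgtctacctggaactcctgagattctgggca
Fads2, chr19:10101454-10101753, minus strand: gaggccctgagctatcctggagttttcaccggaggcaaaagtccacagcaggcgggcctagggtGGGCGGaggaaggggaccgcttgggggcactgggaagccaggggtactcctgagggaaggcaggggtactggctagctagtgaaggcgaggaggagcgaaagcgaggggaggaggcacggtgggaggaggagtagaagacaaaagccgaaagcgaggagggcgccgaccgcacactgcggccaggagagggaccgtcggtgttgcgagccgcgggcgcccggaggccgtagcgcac
The Awat1 window held AGAACA and CCAAT, both on the opposite strand. The Awat2 windows held a CCAAT each, and the downstream one a GGGCGG, and the Fads2 window held 1 GGGCGG. The Dgat2l6 window held none of the 8, which says only that these letters are not in it. Among 32817 promoter windows of the same length, CCAAT was found in 37.4%, GGGCGG in 35.6% and AGAACA in 19.0%, so these matches are common. The Fads2 window was 67.0% G and C and the Dgat2l6 window 46.7%, beside a median of 52.7% over all windows.

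Dgat2l6 had the largest positive genotype difference of the 10. NPYtet replicates 1 to 5 held 31.1, 41.5, 40.8, 36.5 and 67.3 CPM, and WT replicates 1 to 5 held 15.3, 19.8, 24.7, 18.9 and 37.9 CPM. All NPYtet libraries lay above 4 of the 5 WT libraries, and WT replicate 5 lay among them. The log2 fold change was 0.97 (SE 0.30, 95% interval 0.33 to 1.61, a ratio of 1.96), with an edgeR adjusted p = 0.999 that did not pass. It stayed between 0.70 and 1.14 in all 21 alternatives, with adjusted p from 0.252 (DESeq2) to 1. Without NPYtet replicate 5, the highest library, it was 0.81, without NPYtet replicates 1 and 5 and WT replicate 2 it was 0.80, and it was 0.90 when the white adipocyte score was added to the fit. Within males it was 1.09 (SE 0.44) and within females 0.85 (SE 0.46), fits in which 4.01% and 2.48% of all genes were at an unadjusted p under 0.05. The value within females was 0.96 without NPYtet replicate 1, whose Xist and Ddx3y reads go against its label.

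Awat1 was at 96.7, 123.7, 78.7, 54.3 and 138.6 CPM in NPYtet replicates 1 to 5, against 27.1, 109.5, 56.9, 34.0 and 167.0 CPM in WT replicates 1 to 5. The lowest and the highest library of all were both WT, so the groups overlapped widely, and the log2 fold change of 0.60 (SE 0.40) did not pass (edgeR adjusted p = 0.999). With the hair follicle score as a covariate it was 0.13. Awat2 was at 39.9, 24.7, 61.2, 48.2 and 43.4 CPM in NPYtet and at 21.7, 48.1, 54.8, 8.11 and 54.5 CPM in WT, and WT replicate 4 held the lowest level of the 10 libraries. Its log2 fold change was 0.13 (SE 0.46, 95% interval -0.84 to 1.11), and it changed sign in 5 of 21 alternatives. The neighbours on the X chromosome did not share 1 pattern: over the 10 libraries, Pearson's r of log2 CPM was 0.71 between Awat1 and Dgat2l6, 0.56 between Awat1 and Awat2, and 0.47 between Awat2 and Dgat2l6. These are descriptions over 10 libraries that share each library's depth and makeup.

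Far2, the fatty acyl-CoA reductase that makes the fatty alcohol of wax esters, lies at chr6:148047259-148182758 on the plus strand (ENSMUSG00000030303). It was at 238, 343, 238, 212 and 269 CPM in NPYtet replicates 1 to 5, against 119, 64.3, 221, 198 and 259 CPM in WT replicates 1 to 5. The 2 lowest libraries were WT replicates 2 and 1, WT replicate 4 lay just below the NPYtet range, and WT replicates 3 and 5 lay within it. By genotype Far2 differed by 0.62 (SE 0.36) in log2 units (edgeR adjusted p = 0.999), and 0.43 without WT replicate 2. Of its 75-base transcript windows, 9.68% also occur in other genes, mostly Ergic2 on the opposite strand, and no source used here gives the strand setting of the counts.

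Scd3, a stearoyl-CoA desaturase of sebocytes that puts the first double bond into saturated fatty acids, lies at chr19:44203269-44244016 on the plus strand (ENSMUSG00000025202). It was at 241, 164, 185, 153 and 148 CPM in NPYtet and at 78.3, 63.7, 169, 102 and 205 CPM in WT, so 3 WT libraries lay below the NPYtet range and 2 within it. By genotype Scd3 differed by 0.49 (SE 0.36) in log2 units (edgeR adjusted p = 0.999). It shares 3.20% of its 75-base windows with other genes, mostly Scd1, so some reads may be uncertain between these copies. Scd1, its broadly expressed neighbour, averaged 2466 ± 894 CPM in NPYtet and 1279 ± 587 CPM in WT (SD, n = 5 each), with a log2 fold change of 0.81 (SE 0.44) that did not pass either (edgeR adjusted p = 0.999).

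Fads2 had the largest negative genotype difference of the 10. NPYtet replicates 1 to 5 held 4.52, 4.93, 4.20, 7.46 and 5.56 CPM (84 to 326 reads), and WT replicates 1 to 5 held 25.2, 15.9, 6.77, 13.6 and 7.60 CPM (256 to 975 reads). The NPYtet libraries lay close together, 4 of them below every WT library, while WT replicates 3 and 5 sat near them and WT replicates 1, 2 and 4 far above. The log2 fold change was -1.40 (SE 0.39, 95% interval -2.24 to -0.57), with an edgeR adjusted p = 0.993 that did not pass. With no filter on low counts, where 409 genes were called in all, Fads2 was called (edgeR adjusted p = 0.04445; 0.04445 to 0.9999 over all alternatives). Without WT replicate 1 its log2 fold change was -0.90, and without NPYtet replicates 1 and 5 and WT replicate 2 it was -1.30. Within males it was -1.24 (SE 0.60) and within females -1.57 (SE 0.57), or -1.44 in females without NPYtet replicate 1.

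The libraries varied in hair follicle transcripts. Transcripts of 15 growing hair follicle markers summed to 35.9, 1425, 140, 61.1 and 12403 CPM in NPYtet replicates 1 to 5, against 25235, 24371, 313, 18313 and 8309 CPM in WT replicates 1 to 5, and at most 1 of the 15 was at 0 reads in any library. The 3 WT libraries with the highest sums were the 3 with the highest Fads2, whereas NPYtet replicate 5 had a high sum and a low Fads2 level. Once the hair score was added to the fit, the log2 fold change of Fads2 was -0.57 (SE 0.51), of Dgat2l6 0.89 (SE 0.39) and of Scd3 -0.03 (SE 0.40). The 12 white adipocyte markers summed to 3840 to 11127 CPM in NPYtet and 2151 to 6543 CPM in WT, ranges that overlap, with all 12 detected in every library and none called by genotype. With their score as a covariate Fads2 was at -1.52 (SE 0.52).

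**Figure D2:**
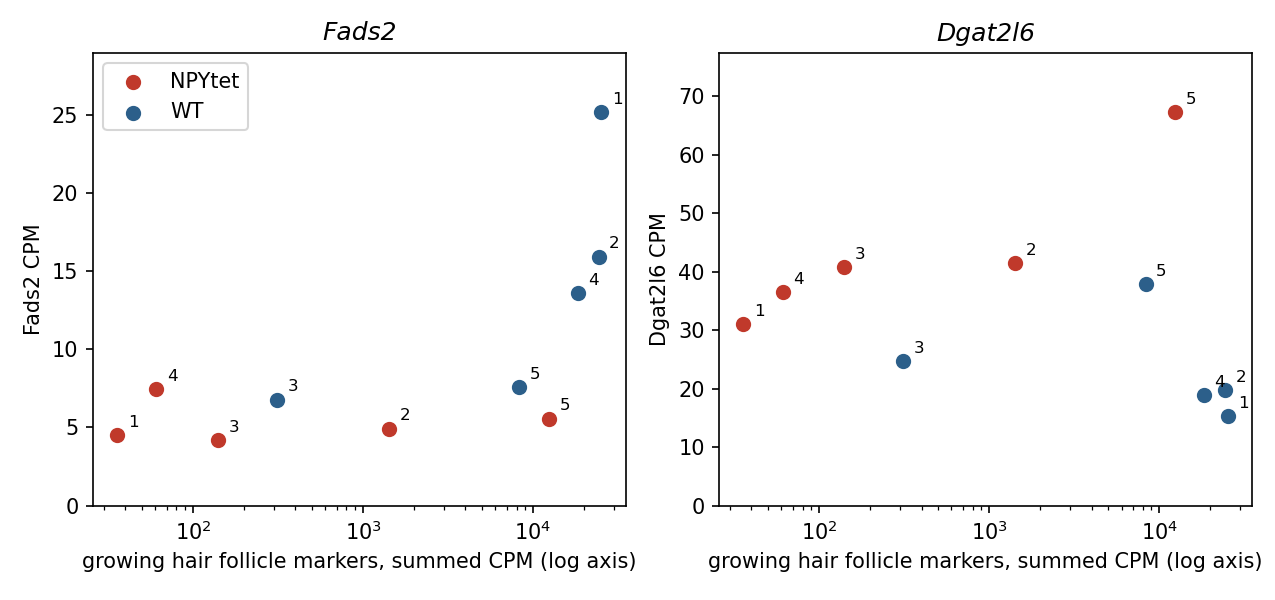
Level in CPM of Fads2 (left) and Dgat2l6 (right) in each library against the summed CPM of 15 growing hair follicle markers (log axis), with NPYtet in red, WT in blue and the replicate number beside each point. Fads2 is highest in the 3 WT libraries with the most hair transcripts, while NPYtet replicate 5 combines 12403 CPM of hair transcripts with 5.56 CPM of Fads2 and the highest Dgat2l6.

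Mgst1, a microsomal glutathione S-transferase that reduces lipid peroxides, lies at chr6:138140316-138156755 on the plus strand (ENSMUSG00000008540). It was at 249, 232, 280, 228 and 698 CPM in NPYtet and at 174, 213, 247, 195 and 300 CPM in WT. NPYtet replicate 5 held more than any other library, and the other 9 lay between 174 and 300 CPM. Its difference of 0.62 (SE 0.34) in log2 units (edgeR adjusted p = 0.999) was 0.17 without that library. The family of membrane proteins to which it belongs, with Mgst2, Mgst3, Ptges, Ltc4s and Alox5ap, had 5 of 5 members tested. All 5 had positive genotype differences, beside 48.8% of all genes, with a median log2 fold change of 0.19. None was at an unadjusted p under 0.05 for genotype, beside 3.59% of all genes.

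Soat1, which joins cholesterol to a fatty acid to make sterol esters, lies at chr1:156424525-156474331 on the minus strand (ENSMUSG00000026600). It was at 150, 184, 147, 119 and 45.5 CPM in NPYtet and at 101, 41.8, 146, 150 and 199 CPM in WT. The lowest library of each group was NPYtet replicate 5 and WT replicate 2, the pair with the lowest scaling factors. Its genotype difference was -0.01 on the log2 scale (SE 0.44, 95% interval -0.94 to 0.92; edgeR adjusted p = 0.999), which leaves room for a change of nearly 2-fold either way. Its sign is not resolved.

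Mc5r, the melanocortin receptor through which peptides of the Pomc gene act on the gland, lies at chr18:68337596-68342446 on the plus strand (ENSMUSG00000007480). It was scarce, at 6.42, 6.17, 2.998, 4.35 and 2.12 CPM in NPYtet (32 to 261 reads) and at 3.80, 2.17, 4.75, 5.33 and 5.76 CPM in WT (41 to 322 reads). NPYtet replicate 5 and WT replicate 2 again held the lowest levels. Its log2 fold change was 0.01 (SE 0.42, 95% interval -0.88 to 0.90; edgeR adjusted p = 0.999). Its sign is not resolved either. Pearson's r of log2 CPM between Mc5r and Soat1 was 0.89 over the 10 libraries, the highest of the 45 pairs of members, and the lowest was -0.88, between Scd3 and Fads2. By ranks (Spearman's rho) the order changed. Dgat2l6 and Far2 were highest at 0.90, above Mc5r and Soat1 at 0.87. The lowest rho, -0.72, was shared by Fads2 with each of Scd3, Dgat2l6 and Far2.

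**Figure D3:**
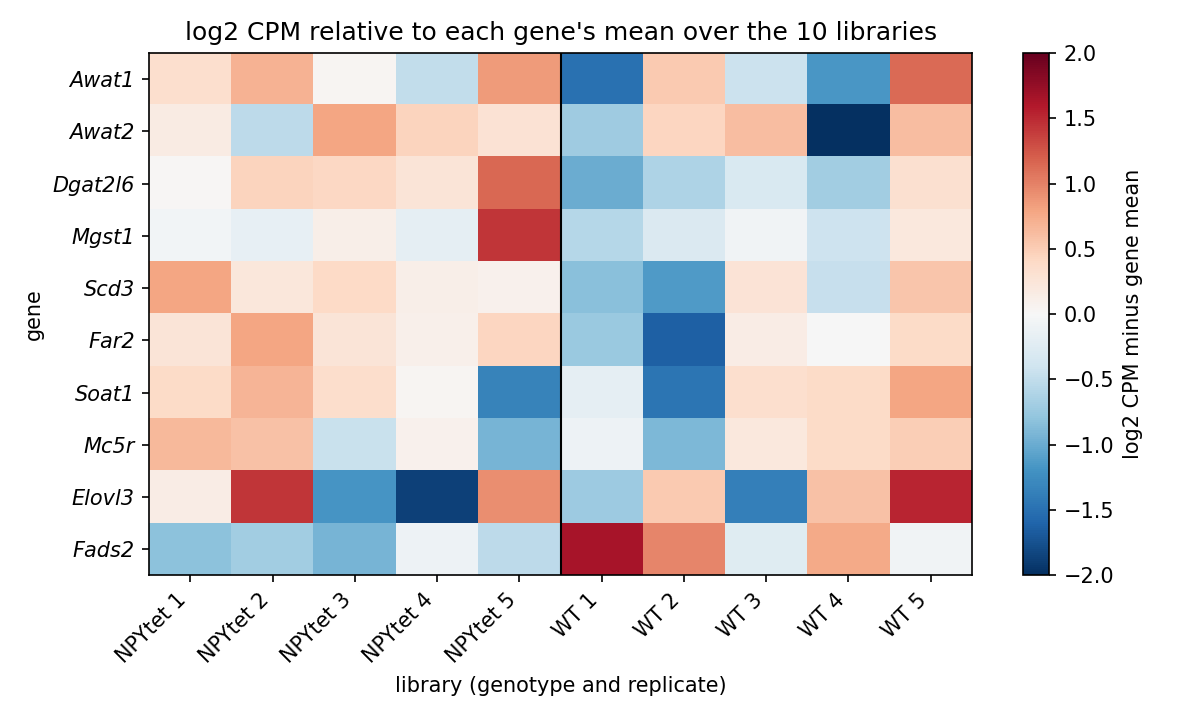
log2 CPM of each gene (rows) in each library (columns, NPYtet left and WT right), minus the gene's mean over the 10 libraries; red is above and blue below that mean. Soat1 and Mc5r are lowest in NPYtet replicate 5 and WT replicate 2, Dgat2l6 and Mgst1 are highest in NPYtet replicate 5, and Fads2 is highest in WT replicate 1 at 25.2 CPM.

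Elovl3, an elongase of saturated and monounsaturated fatty acids known from sebaceous glands, hair follicles and brown fat, lies at chr19:46131897-46135694 on the plus strand (ENSMUSG00000038754). It passed the threshold by sex label and not by genotype. Libraries labelled male held 224 and 158 CPM in NPYtet (replicates 2 and 5) and 119, 125 and 239 CPM in WT (replicates 2, 4 and 5). Libraries labelled female held 91.9, 36.6 and 22.7 CPM in NPYtet (replicates 1, 3 and 4) and 50.1 and 32.3 CPM in WT (replicates 1 and 3). Every male library lay above every female one, as in 3.06% of all genes (5.38% had every male library below), and the highest level labelled female was that of NPYtet replicate 1. Males averaged 173 ± 55.7 CPM and females 46.7 ± 27.1 CPM (SD, n = 5 each), and the log2 fold change, male minus female, was 1.95 (SE 0.39, 95% interval 1.11 to 2.78; edgeR adjusted p = 0.0224).

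Elovl3 was the only 1 of the 10 members called by sex, beside 2.48% of all genes. With Awat1, 2 of 10 were at an unadjusted p under 0.05, beside 24.6% of all genes. The difference was 1.92 (SE 0.56) within NPYtet and 1.97 (SE 0.61) within WT, neither of which passed alone (edgeR adjusted p = 0.246 and 0.407). The genotype difference was not called as unlike in males and females for Elovl3 (males minus females -0.04 log2, SE 0.80; edgeR adjusted p = 0.9999) or any other member, nor for any of 18060 genes, of which 1.63% were at an unadjusted p under 0.05. Without NPYtet replicate 1, the value for Elovl3 was 0.70 (SE 0.73), with a genotype difference of -0.46 in females. With these SEs a large difference could be missed. Without NPYtet replicate 1, whose Xist and Ddx3y reads go against its label, the log2 fold change by sex was 2.34 (edgeR adjusted p = 0.00441), and without NPYtet replicate 1, NPYtet replicate 5 and WT replicate 2 together it was 2.498 (edgeR adjusted p = 0.00918). The call was lost without NPYtet replicate 3, NPYtet replicate 4 or WT replicate 3 (1.86, 1.78 and 1.83; edgeR adjusted p = 0.0735, 0.0588 and 0.1097), with library totals only (1.58; edgeR adjusted p = 0.0708) and with the hair score in the fit (2.16; edgeR adjusted p = 0.207). Basal epidermis markers summed to 10126 to 58023 CPM in males and 7348 to 13001 CPM in females, ranges that overlap, with all 5 detected in every library. Of the 5, 2 were higher in males at an unadjusted p under 0.05, beside 13.1% of all genes, and Krt14 was called, beside 2.48% of all genes, while Krt15 had a log2 fold change of -0.31. Their part in the result was not tested. Of 6 brown adipocyte markers, Ucp1 was at most 0.223, Zic1 at most 0.463 and Otop1 at most 0.860 CPM in any library. Cox7a1 was at 6.14 to 37.4, Dio2 at 1.67 to 8.49 and Ppargc1a at 0.831 to 5.12 CPM. A part of brown fat in the Elovl3 level was not tested.

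By genotype, Elovl3 averaged 107 ± 84.7 CPM in NPYtet and 113 ± 81.5 CPM in WT (SD, n = 5 each), and the difference of 0.27 (SE 0.38) in log2 units (edgeR adjusted p = 0.999) was -0.08 without the sex term and 0.83 (SE 0.34) with the white adipocyte score in the fit, where it had an edgeR adjusted p = 0.9999. Awat1 came next by sex, at 124 and 139 CPM in male NPYtet and 110, 34.0 and 167 CPM in male WT libraries, against 96.7, 78.7 and 54.3 CPM in female NPYtet and 27.1 and 56.9 CPM in female WT libraries. The log2 fold change of 1.04 (SE 0.40) did not pass (edgeR adjusted p = 0.139), and it passed without WT replicate 4 (1.21, edgeR adjusted p = 0.03186). In limma voom, where 5590 of 18060 genes were called by sex, it passed as well (1.13, adjusted p = 0.0328). Without NPYtet replicate 1 it was 1.20 (edgeR adjusted p = 0.116). The other 8 members ranged from -0.30 (Awat2) to 0.52 (Mgst1) by sex.

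**Figure D4:**
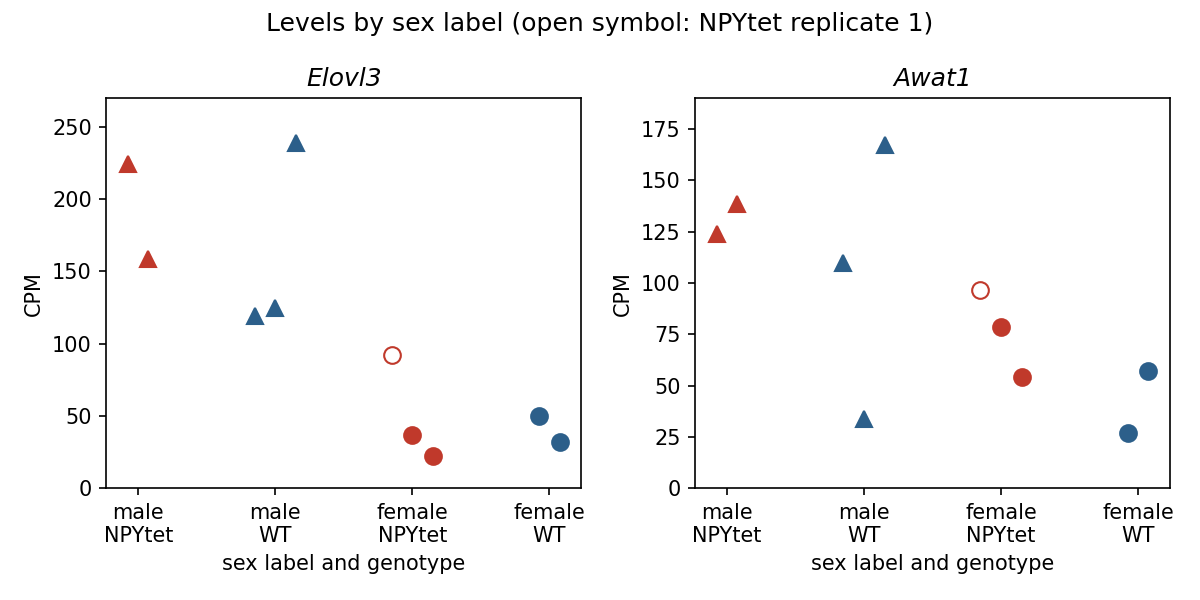
Level in CPM (linear from 0) of Elovl3 (left) and Awat1 (right) by sex label and genotype, with NPYtet in red and WT in blue; the open circle is NPYtet replicate 1, labelled female. All 5 libraries labelled male exceed all 5 labelled female in Elovl3, while WT replicate 4, labelled male, has low Awat1, at 34.0 CPM.

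**Figure D5:**
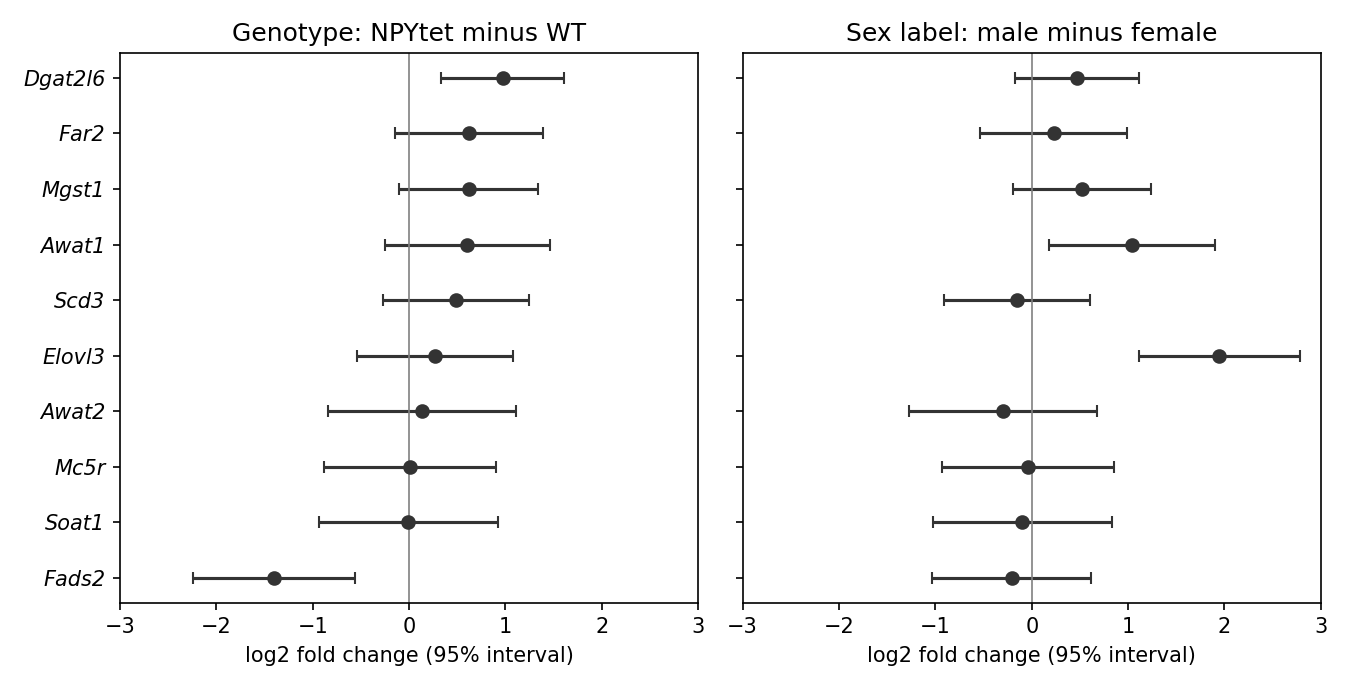
log2 fold change of each gene with its 95% interval by genotype (NPYtet minus WT, left) and by sex label (male minus female, right), from the same fit. By genotype the intervals of Dgat2l6 and Fads2 leave out 0 without passing adjustment over 18060 genes, and by sex those of Elovl3 and Awat1 do, of which Elovl3 passed.

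Related genes were counted in the same fit. In the acyl transfer list, 9 of 9 tested genes had positive genotype differences (median log2 fold change 0.64), beside 48.8% of all genes. None was called or at an unadjusted p under 0.05, beside 3.59% of all genes at that p. Agpat2, an enzyme of phosphatidic acid synthesis, had a log2 fold change of 0.82 (SE 0.40), Dgat2 and Dgat1, the final enzymes of triglyceride synthesis, had 0.88 (SE 0.46) and 0.64 (SE 0.42), and the monoacylglycerol acyltransferase Mogat1 had 0.99 (SE 0.55). Most of these genes are also made by adipocytes, whose markers had positive genotype differences in 12 of 12 cases, beside 48.8% of all genes, with 4 at an unadjusted p under 0.05, beside 1.46% higher of all genes, and none called. A part of adipocyte RNA in the differences of the 9 acyl transfer genes was not tested. By sex, 4 of the 9 were higher in males at an unadjusted p under 0.05, beside 13.1% of all genes. Of the 9, Dgat1, singled out after its values were seen, was called, beside 2.48% of all genes (log2 fold change 1.74, SE 0.43, edgeR adjusted p = 0.0482).

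Of 14 tested desaturases and elongases other than the members, 8 had positive and 6 negative genotype differences (median log2 fold change 0.21). Positive differences made up 48.8% of all genes. None of the 14 was at an unadjusted p under 0.05, beside 3.59% of all genes. After Scd1, the elongase Elovl7 had a genotype difference of 0.53 (SE 0.27) and Elovl4, which makes very long chains, one of 0.65 (SE 0.36), both log2. Fads1, which works beside Fads2 in the synthesis of polyunsaturated fatty acids, averaged 37.6 ± 14.0 CPM in NPYtet and 42.7 ± 11.2 CPM in WT (SD, n = 5 each), and the log2 difference, -0.38 (SE 0.30), did not pass (edgeR adjusted p = 0.999).

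The 19 sebocyte regulators and lipid droplet genes divided into 12 positive and 7 negative (median log2 fold change 0.09), beside 48.8% positive of all genes. At an unadjusted p under 0.05, 1 was higher and 0 lower by genotype, beside 1.46% and 2.14% of all genes, and 0 were called. The higher was Pparg, the nuclear receptor of sebocyte and adipocyte differentiation, at 0.74 (SE 0.34). Krt79, a keratin of the sebaceous duct, had -0.63 (SE 0.37) and Lrig1, a stem cell gene of the upper follicle, -0.52 (SE 0.34). By sex, 9 were higher and 3 lower in males at an unadjusted p under 0.05, beside 13.1% and 11.5% of all genes, and among those called was the fatty acid carrier Fabp5, singled out after its values were seen, at 1.87 (SE 0.33, edgeR adjusted p = 0.013). It is also made by other skin cells.

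In the melanocortin list 5 of 11 genes had enough reads to be tested, and none was called. Mrap and Mc2r, an accessory protein and the receptor it serves, differed by 1.16 (SE 0.40) and 1.24 (SE 0.56) on the log2 scale. Both were higher at an unadjusted p under 0.05, beside 1.46% of all genes, and both are also genes of mouse adipocytes. Pcsk2, a protease that trims peptide hormones, was at 0.174 ± 0.127 CPM in NPYtet and 1.24 ± 0.60 CPM in WT (SD, n = 5 each), and differed by -2.87 (SE 0.71) in log2 units (edgeR adjusted p = 0.833). It was lower at an unadjusted p under 0.05, beside 2.14% of all genes. It was the 1 gene among the 5 tested whose groups did not overlap, with every NPYtet library below every WT library, as in 0.216% of all genes. Agrp, an antagonist of melanocortin receptors, had -0.45 (SE 0.45).

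Among 13919 other genes of at least 1 CPM, those whose log2 CPM followed each member most closely over the 10 libraries were named by Pearson's r, as a description. Awat1 was followed most closely by the lipase gene Pnpla5 (r = 0.95), then by Ly6c1 and by Cidea, a lipid droplet protein, and Awat2 by Sectm1b (0.97), Mxra8 and Gata6, a transcription factor of the sebaceous duct. The nearest to Elovl3 was Aox4, an aldehyde oxidase (0.99), then Ppa1 and Manf, and the nearest to Far2 was the retinol dehydrogenase Rdh11 (0.98), then Cnih1 and Pank1. Fads2 was nearest to Heyl (0.94), Msx1 and Basp1. Dgat2l6 was nearest to Nfu1 (0.97), Itgb1bp1 and Aadac, Scd3 to A4gnt (0.96), Ikzf3 and Dusp18, and Mgst1 to Cyb5a (0.99), Gng11 and B2m. Mc5r was nearest to Coa5 (0.98), Hipk1 and Frmd6, and Soat1 to Moxd1 (0.98), Rab28 and Npepps. No gene was among the nearest 3 of more than 1 member.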

How the data were processed

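Poly(A) RNA of whole skin was sequenced from 5 NPYtet and 5 WT mice. The deposited files, 1 per mouse, hold raw read counts for each Ensembl gene ID. The submitters' processing notes name STAR 2.5.2 and mm10, Trimmomatic 0.36, DESeq2 1.30.1, FastQC 0.11.8 and bcl2fastq. No source used here gives the strand setting or annotation release. Of 49671 IDs, 49412 matched GENCODE M21 (GRCm38), which gave symbols, coordinates and exon lengths.

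Counts were filtered by filterByExpr of edgeR 4.0.16 in R 4.3.3 (minimum count 10, minimum total 15), scaled by TMM and fitted with glmQLFit (robust) to the sex label and genotype. Intervals are 95% from the fitted SE. CPM was computed on TMM-adjusted library sizes, with a prior count of 2 before taking log2. Alternatives used DESeq2 1.42.0 and limma 3.58.1 among others. The fit was tested on simulated data. Libraries of 1 group differed by more than sampling noise in every pair. Nothing says that litters or extractions were separate, so the libraries may not be independent. The p-values set each difference against the spread between these mice and treat the libraries as independent.

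The members, the 12 other lists, the naming rule and the alternatives were chosen with earlier results of these data known. Named were all members, up to 4 genes per related list by smallest genotype p, and the 3 closest genes per member; some genes of the related lists are not reported here. 1 listed hair marker did not match the annotation. Promoter windows from RefSeq were found for 8 of 10 members.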

Additional observations from a re-analysis of the deposited data

Results flagged for a closer look

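In 2 of 20 sets of 5 libraries (10 genes in 2 genotypes), 1 library stood apart by a gap to its neighbour that was large for the range of its group, which chance gives in about 1 of 20 such sets. Both were NPYtet replicate 5, which also had 9.27% mitochondrial reads and the lowest scaling factor, 0.652. Mgst1 was at 697.8 CPM in it and at 228 to 280 CPM in the other 4 NPYtet libraries. Dgat2l6 was at 67.29 CPM in it and at 31.1 to 41.5 CPM in the other 4. Without this library the log2 fold changes, NPYtet minus WT, were 0.17 for Mgst1 and 0.81 for Dgat2l6.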

How the results depend on the processing

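Over 21 alternatives no member was called by genotype in 20; with no filter on low counts 1 was (Fads2). The number at an unadjusted p under 0.05 was 2 in the fit reported, beside 649 of 18060 genes. It was 1 with limma voom, beside 777 genes, and 1 with the hair score in the fit, beside 587. With the white adipocyte score it was 3 (Dgat2l6, Elovl3 and Fads2), beside 263. With each library left out it was 1 to 4. Without WT replicate 1 it was 1 (Dgat2l6), beside 219 of 18311 genes, and without WT replicate 5 it was 4 (Awat1, Dgat2l6, Scd3 and Fads2). The share of all genes differs between fits, so the counts cannot be compared alone. The number called by sex was 1 in the fit reported, beside 448 of 18060 genes, and 2 with limma voom (Awat1 and Elovl3), beside 5590. It was 0 with library totals only, with the hair score, or with a replicate block, beside 217, 21 and 0 genes in that order. With each library left out it was 0 to 2. No member was called for a genotype difference that differs by sex in any of 3 alternatives. Over all genes, 0 to 409 were called by genotype (51 in DESeq2) and 0 to 5590 by sex.

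Some genotype differences (NPYtet minus WT, log2) changed sign. Awat2 was at -0.064 with a replicate block, -0.153 with the hair score and -0.117 with the adipocyte score. Scd3, at 0.49 in the fit reported, was at -0.030 with the hair score. Elovl3 was at -0.144 in limma voom, -0.083 without the sex term and -0.137 with 3 libraries left out together (NPYtet replicates 1 and 5, WT replicate 2). Mc5r was at -0.142 in limma voom, -0.031 with library totals, 0.000 with no filter, -0.591 with the hair score and -0.051 without those 3 libraries. Soat1 was at 0.022 in DESeq2, 0.024 with RLE scaling, 0.016 without the sex term, 0.181 with a replicate block, 0.654 with the adipocyte score and 0.107 without those 3 libraries. With each library left out the ranges were -0.126 to 0.351 for Awat2, -0.070 to 0.453 for Elovl3, -0.307 to 0.273 for Mc5r and -0.423 to 0.317 for Soat1.

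So did some sex differences (male minus female, log2). In limma voom Scd3 was at 0.063, Mc5r at 0.372 and Soat1 at 0.261. Mc5r was at 0.001 with RLE scaling and Far2 at -0.123 with library totals. With a replicate block Awat1 was at -0.140 (1.04 in the fit reported), Dgat2l6 at -0.043, Scd3 at 0.085, Mc5r at 0.337 and Soat1 at 0.522. Only replicate number 4 joins a library labelled male and one labelled female, so the sex differences of that fit rest on it. With the hair score Awat2 was at 0.237, Scd3 at 0.610, Mc5r at 0.567 and Soat1 at 0.542, and without the 3 libraries Scd3 was at 0.210, Mc5r at 0.562 and Soat1 at 0.523. With each library left out the ranges were -0.427 to 0.042 for Scd3, -0.352 to 0.243 for Mc5r, -0.506 to 0.250 for Soat1 and -0.448 to 0.293 for Fads2. Apart from this limit of the replicate block, the cause of these changes was not tested.

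The replicate numbers only name the mice: deviations from the group means of same-numbered libraries correlated at -0.256, 0.304, 0.644, 0.093 and 0.076, and a WT library of the same number was the best match for 1 of 5. With the replicate block Elovl3 was at 2.81 by sex (SE 1.005) and was not called (edgeR adjusted p = 1), and no gene was called by sex in that fit. By genotype no member was called there, and 2 were at an unadjusted p under 0.05, beside 254 of 18060 genes. Depth limits Mc5r and Fads2, with 32 and 84 reads at the lowest.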
